A study of Sus scrofa with 22 samples.

Results

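The carnitine shuttle moves long-chain fatty acids into mitochondria. Its 4 genes CPT1A, CPT1B, CPT2 and SLC25A20 are described here in mononuclear cells from the blood of mini pigs. Each was represented by 1 probe set of an Affymetrix porcine array, among 10069 probe sets with a single gene symbol that stand for 6765 genes. All 4 passed the filter on low values, a log2 value above 5 in at least 2 arrays. The probe sets were taken by their annotation to exactly 1 of these symbols, and the gene group itself was chosen on earlier results from the same arrays. CPT1A and SLC25A20 had stood out in the comparisons of the high-fat diets with the control diet, and CPT1A in the comparison of the sexes at time 0. In those comparisons the values of the 4 genes are given below as a description, with no test.

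The shuttle works in steps. Fatty acids are first activated to acyl-CoA, which cannot cross the inner mitochondrial membrane. CPT1 on the outer membrane exchanges the CoA for carnitine, and this step limits the rate of the pathway and is blocked by malonyl-CoA, the first intermediate of fatty acid synthesis. CPT1A is the isoform of liver and most other tissues, blood cells included, and CPT1B that of skeletal muscle and heart. SLC25A20, the carnitine-acylcarnitine carrier, brings acylcarnitine across the inner membrane in exchange for free carnitine, and CPT2 on the inner side turns it back into acyl-CoA for beta-oxidation. In mammals, CPT1A and SLC25A20 are known targets of the fatty acid receptors of the PPAR family, and resting and memory lymphocytes and monocytes are known to burn fatty acids.

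The study compared 4 conditions, each with females and males in equal number. The first received the high-fat chow, with 20% beef tallow, plus a daily resveratrol dose of 8 mg per kg of body weight for 9 months (HF+RES, 2 females and 2 males). The second received the high-fat chow alone for 9 months (HF, 2 females and 2 males), and the third the control chow with 5% beef tallow for 9 months (CT, 2 females and 2 males). The last was sampled at time 0 on normal chow (5 females and 5 males). All animals were of the Mini Pig breed, their age is not given in the sources used here, and pigs 8 and 25 of the control group were measured at both times, so that 22 arrays came from 20 pigs. The cells were a density gradient fraction of blood with no sorting, so each array reads a mixture of lymphocytes and monocytes, in which fewer cells of a type and less RNA per cell cannot be told apart.

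Values below are levels in log2 of the deposited intensity, and differences are in log2 units, where 1 unit is a 2-fold change. Probe sets differ in how brightly they report, so no gene's level is set against another's. The 22 arrays gave 17240 probe sets for testing. Arrays of the same group had a median correlation of 0.986 over 26 pairs, and arrays of different groups one of 0.969 over 205 pairs. The poly-A spike-in controls, RNAs added before labelling, fell into a lower and a higher set of arrays at each time. At 9 months the higher set (9.93 to 10.6) held 1 HF+RES, 3 HF and 1 CT array, and the lower set (8.39 to 9.02) held 3, 1 and 3. At time 0 the higher set held females 6 and 10. The 3' minus 5' actin difference, a sign of RNA quality, was 1.86 ± 0.67 in HF+RES, 2.36 ± 0.56 in HF, 1.95 ± 0.65 in CT (SD, n = 4 each) and 1.42 ± 0.50 at time 0 (SD, n = 10). All measured markers of T cells (9), monocytes (9) and NK or cytotoxic cells (4) passed the filter, as did the 1 measured B cell marker, CD79B, and those of platelets (5), red cells (3) and granulocytes (4).

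CPT1A was the most variable of the 4 genes. Its level ran from 7.93 to 10.0 over the 22 arrays (SD 0.61), and 96.0% of all tested probe sets had a smaller SD. SLC25A20 ran from 6.44 to 7.71 (SD 0.38, with 82.1% of probe sets below it). CPT1B (6.17 to 7.01, SD 0.21) and CPT2 (5.15 to 5.89, SD 0.21) varied less than most probe sets, with 41.4% and 38.9% below them. The CPT2 probe set was dim, above 5 in all 22 arrays and above 6 in 0. The plot of the 4 genes by array shows the wide spacing of groups for the gate enzyme and the carrier and the narrow bands of CPT2 and CPT1B.

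**Figure D1:**
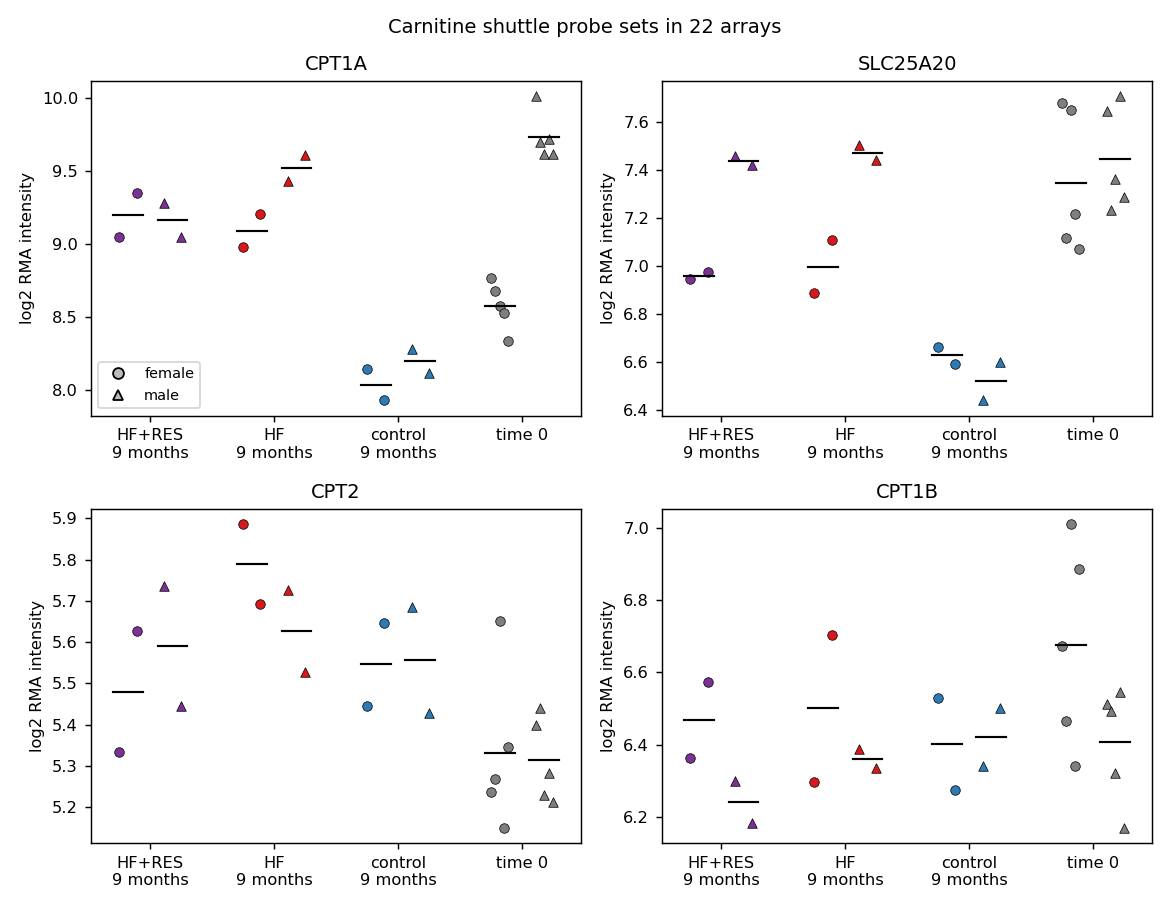
Levels of CPT1A, SLC25A20, CPT2 and CPT1B (y axes, log2 RMA intensity) in the 22 arrays by condition, with circles for females, triangles for males and a line at the mean of each sex. The CT arrays of 9 months lie lowest for CPT1A (7.93 to 8.28) and SLC25A20 (6.44 to 6.66), and at time 0 CPT1A separates females from males.

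CPT1A was at a high level in both groups on high-fat chow and at its lowest on the control chow. In HF+RES it was 9.05 and 9.35 in the females and 9.28 and 9.05 in the males. In HF it was 8.98 and 9.20 in the females and 9.43 and 9.61 in the males. In CT it was 8.15 and 7.93 in the females and 8.28 and 8.12 in the males. Every array of either high-fat group lay above every CT array. The group levels were 9.18 ± 0.16 in HF+RES, 9.31 ± 0.28 in HF and 8.12 ± 0.15 in CT (SD, n = 4 each). The difference was 1.19 for HF minus CT (SE 0.21, a 2.28-fold higher intensity) and 1.06 for HF+RES minus CT (SE 0.21, 2.09-fold). These 2 differences share the CT arrays and are not independent of each other. Differences within the sexes came from another fit, with a mean for each group of condition and sex, so their SEs are not on the same footing. HF minus CT was 1.05 in females and 1.32 in males (SE 0.16 each), and HF+RES minus CT was 1.16 in females and 0.96 in males.

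SLC25A20, the carrier of the next step, had the same order of diets with smaller distances. In HF+RES it was 6.95 and 6.97 in the females and 7.46 and 7.42 in the males. In HF it was 6.89 and 7.11 in the females and 7.50 and 7.44 in the males. In CT it was 6.66 and 6.59 in the females and 6.44 and 6.60 in the males. Again each array on high-fat chow lay above each CT array, and within the high-fat groups each male lay above each female. The spacing of the sexes was seen only after the values were known. The share of all probe sets with such a spacing was not counted, so nothing is read from it. The group levels were 7.20 ± 0.28 in HF+RES, 7.23 ± 0.29 in HF and 6.57 ± 0.09 in CT (SD, n = 4 each). HF minus CT was 0.66 (SE 0.15, 1.58-fold) and HF+RES minus CT was 0.63 (SE 0.15, 1.54-fold). In females the HF minus CT difference was 0.37 and in males 0.95 (SE 0.20 each).

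CPT2, which completes the shuttle, and CPT1B, the muscle isoform, showed no such spacing. CPT2 was 5.54 ± 0.18 in HF+RES, 5.71 ± 0.15 in HF and 5.55 ± 0.13 in CT, with HF minus CT at 0.16 (SE 0.11) and HF+RES minus CT at -0.02 (SE 0.11). CPT1B was 6.35 ± 0.16 in HF+RES, 6.43 ± 0.19 in HF and 6.41 ± 0.12 in CT (SD, n = 4 each), with HF minus CT at 0.02 (SE 0.13) and HF+RES minus CT at -0.06 (SE 0.13). For both genes the arrays of the diets overlapped. Over all tested probe sets the arrays of HF and CT did not overlap for 5.05% of probe sets, and those of HF+RES and CT for 1.53%. CPT1A and SLC25A20 belong to both shares, and since these contrasts led to the choice of the genes nothing is read from that. With limma's moderated test 0% of all probe sets passed in HF minus CT and 0% in HF+RES minus CT, with 1562 and 664 at an unadjusted p under 0.05. A fit of 8 group means in place of an additive sex term called 18 and 1 probe sets. FABP4, whose tests are not read for a reason given with its values below, is 1 of the 18.

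Other measures differed between the diets at 9 months, although 0 cell type markers passed limma's test in the comparisons with CT. In the spike-in levels, 3 of 4 HF arrays lay in the higher set. Within the higher set CPT1A was 9.05 in the HF+RES array, 8.98, 9.20 and 9.61 in the HF arrays and 8.12 in the CT array. Within the lower set it was 9.35, 9.28 and 9.05 in the HF+RES arrays, 9.43 in the HF array and 8.15, 7.93 and 8.28 in the CT arrays. The plain difference of means for HF minus CT was 1.15 in the higher set, with 1 CT array, and 1.31 in the lower set, with 1 HF array. For HF+RES minus CT it was 0.93 in the higher set, with 1 array on each side and of different sex, and 1.11 in the lower set, with 3 arrays on each side. A fit with a sex term gave 1.49 and 1.45 in the higher set for HF minus CT and HF+RES minus CT, but there the sex term rests on the HF arrays alone. In the lower set the same fit gave 1.29 for HF minus CT. The SLC25A20 values varied more between the sets. Its plain difference for HF minus CT was 0.54 in the higher and 0.94 in the lower set, beside 0.66 over all arrays. For HF+RES minus CT it was 0.35 in the higher and 0.72 in the lower set, beside 0.63 over all arrays. The fit with a sex term gave 0.84 in the higher and 0.85 in the lower set for HF minus CT, and 0.79 in the higher set for HF+RES minus CT. For both genes all high-fat arrays lay above all CT arrays, so the same order within each set was given in advance. It is no check on the spike-in sets, whose part in the differences was not tested.

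The summed intensities of the cell type markers overlapped between the diets, but some single markers did not. CD163 (8.44 to 9.29 in HF, 9.49 to 10.3 in CT), CST3 and, narrowly, SPI1 lay lower in each HF array than in each CT array. HBB of red cells lay higher in each HF array, and CST3 lay lower in each HF+RES array as well. Over all probe sets 5.05% did not overlap for HF and CT, and 1.53% for HF+RES and CT. Of 9 measured monocyte markers 8 had a negative HF minus CT difference (median -0.47, 0 called, 5 at an unadjusted p under 0.05), and 7 a negative HF+RES minus CT difference (median -0.35, 0 called, 3 at an unadjusted p under 0.05). Their summed intensity ran from 10438 to 17089 in HF+RES, from 11279 to 14965 in HF and from 13212 to 16563 in CT. The HF+RES males had monocyte sums of 17089 and 16746, above each CT array, with CPT1A levels of 9.28 and 9.05. On the mean log2 of the 9 markers, in which bright markers weigh less, they stood at 9.92 and 10.0, below CT male 16 (10.06) and above the other 3 CT arrays. The single markers were mixed. In these males FCGR3A, TYROBP, AIF1 and FCGR1A averaged above the CT mean, and CD14, CD163, SPI1, CST3 and CTSD below it. T cell markers had sums of 13810 to 18854 in HF+RES, 14989 to 18469 in HF and 14984 to 16738 in CT. All 4 NK and cytotoxic markers had positive differences, with a median of 0.22 for HF minus CT and 0.42 for HF+RES minus CT, and sums of 7256 to 9002 in HF+RES, 5840 to 9117 in HF and 4564 to 7746 in CT. Of the 5 platelet markers 4 were positive in each comparison, with medians of 0.37 and 1.07, the second about as large as the CPT1A difference of 1.06. Platelet sums were 2321 to 5691 in HF+RES, 1619 to 3862 in HF and 465 to 3686 in CT. The CT sum of 465 was that of female 8 alone, and the other CT arrays lay from 2599 to 3686. That array lowers the CT means behind both platelet medians. Red cell markers were positive for 3 of 3 in HF minus CT (median 0.51) and for 2 of 3 in HF+RES minus CT (median 0.28), with sums of 1158 to 3964 in HF+RES, 1191 to 5815 in HF and 960 to 3527 in CT. Granulocyte markers were negative for 3 of 4 in both comparisons (medians -0.28 and -0.16). The sums of the diets overlapped in each of these lists, and 0 of their markers were called, with 3 platelet markers and 2 NK and cytotoxic markers at an unadjusted p under 0.05 for HF+RES minus CT and 1 NK and cytotoxic, 1 T cell and 1 red cell marker for HF minus CT. The part of cell composition in the CPT1A and SLC25A20 differences was not tested.

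**Figure D2:**
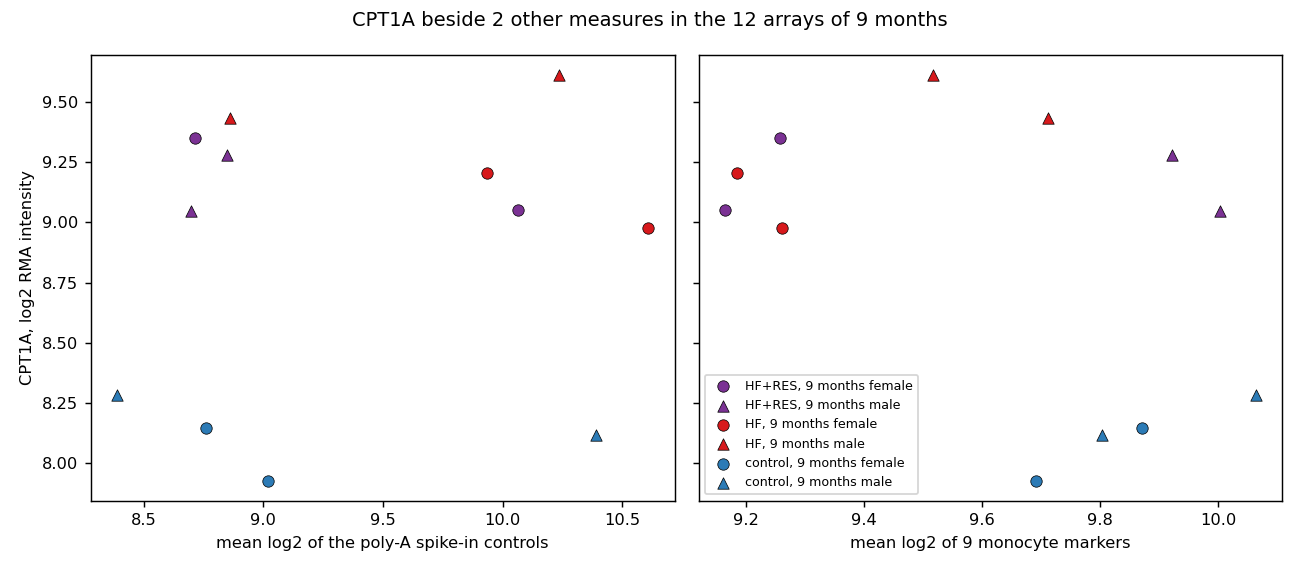
CPT1A level (y axis, log2 RMA intensity) in the 12 arrays of 9 months against the mean log2 of the poly-A spike-in controls (left) and of 9 monocyte markers (right), with colour for diet, circles for females and triangles for males. All high-fat arrays (8.98 to 9.61) lie above all CT arrays (7.93 to 8.28), so the same order within each spike-in set follows from that. On the monocyte axis the CT arrays cover only 9.69 to 10.06 and 5 of the 8 high-fat arrays lie below that range.

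The study's title names resveratrol added to the high-fat diet, and 0 of the 4 genes passed in that comparison. CPT1A differed by -0.12 (SE 0.21, 95% interval -0.57 to 0.32, limma adjusted p = 0.954), SLC25A20 by -0.04 (SE 0.15, -0.35 to 0.28, limma adjusted p = 0.985), CPT2 by -0.17 (SE 0.11, -0.41 to 0.06, limma adjusted p = 0.836) and CPT1B by -0.08 (SE 0.13, -0.36 to 0.20, limma adjusted p = 0.955). The arrays of HF+RES and HF overlapped for each of the 4 genes, while they did not overlap for 3.81% of all probe sets. In limma's fit 0% of all probe sets passed, with 1143 at an unadjusted p under 0.05 and 1 called with 8 group means. That 1 was FABP4, whose tests are not read for a reason given with its values below. The intervals hold CPT1A differences from -0.57 to 0.32, so the data do not show that the groups were alike. With 8 group means the SE of CPT1A was 0.11, so the width of its interval depends on the model. With 1 array left out at a time the CPT1A difference lay between -0.30 and 0.04.

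The resveratrol difference of CPT1A was 0.11 in females and -0.36 in males (SE 0.16 each). The difference between the sexes, 0.47 (SE 0.23, limma adjusted p = 0.842), did not pass, in a comparison where 0.0116% of all probe sets did. For HF minus CT the female value less the male value was -0.58 for SLC25A20 (SE 0.28, limma adjusted p = 0.427) and -0.27 for CPT1A (SE 0.23, limma adjusted p = 0.605), and 0.0058% of all probe sets passed. FABP4, whose tests are not read here, was the 1 probe set behind 0.0058% and 1 of the 2 behind 0.0116%. CPT1B and CPT2 had adjusted p-values of 0.750 or more in both of these comparisons.

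**Figure D3:**
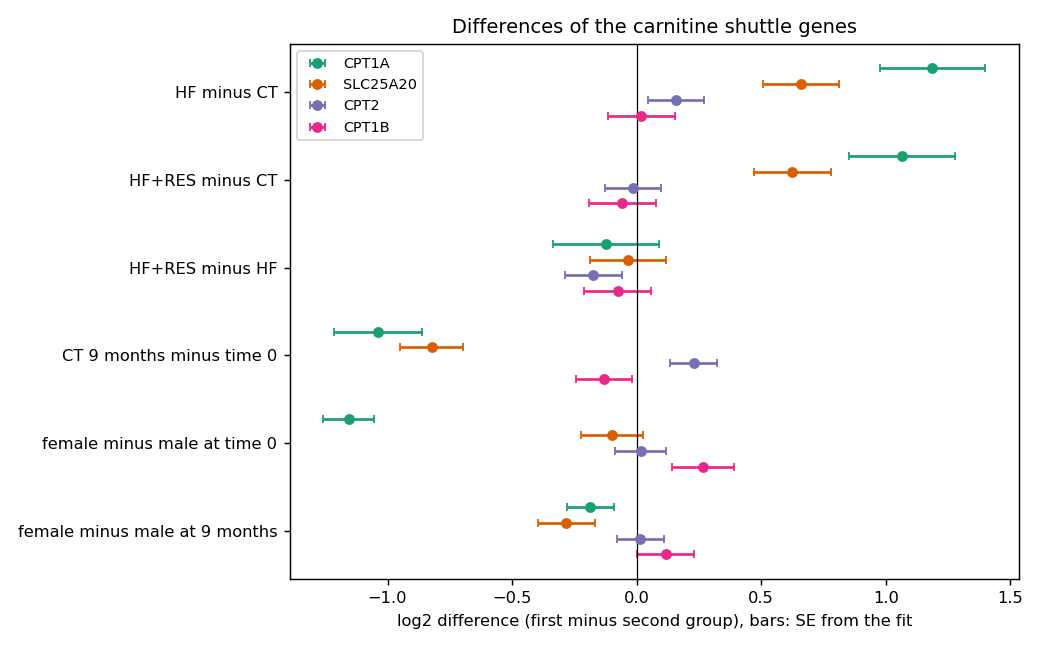
Differences of the 4 genes in 6 comparisons (x axis, log2 units, first group minus second), with bars for the standard error from the fit. CPT1A and SLC25A20 lie at or above 0.63 in both comparisons of a high-fat diet with CT, near 0 for HF+RES minus HF and at -1.04 and -0.82 for CT at 9 months minus time 0.

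On the control chow CPT1A and SLC25A20 fell over the 9 months. CPT1A averaged 8.12 ± 0.15 in CT at 9 months (SD, n = 4) and 9.16 ± 0.63 at time 0 (SD, n = 10), a difference of -1.04 (SE 0.18, limma adjusted p = 0.000172). At time 0 its levels were 8.77, 8.68, 8.58, 8.53 and 8.34 in the females and 10.0, 9.70, 9.62, 9.72 and 9.62 in the males, each above the highest CT array of 9 months (8.28). SLC25A20 averaged 6.57 ± 0.09 in CT at 9 months and 7.40 ± 0.25 at time 0, a difference of -0.82 (SE 0.13, limma adjusted p = 6.76e-05). At time 0 it ran from 7.07 to 7.68 in females and from 7.23 to 7.71 in males, again with no overlap with CT at 9 months. CPT2 differed by 0.23 (SE 0.09, limma adjusted p = 0.0636) and CPT1B by -0.13 (SE 0.11, limma adjusted p = 0.393), neither past the threshold. In this comparison 35% of all probe sets passed and 15.2% did not overlap, so a count of 2 called among 4 is not read as particular to these genes. The 4 CT arrays also enter the comparisons through which CPT1A and SLC25A20 were chosen, so this test is not independent of the choice.

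Both calls held in each of 23 alternatives, with a highest adjusted p of 0.00161 for CPT1A and 0.000672 for SLC25A20 in limma's test. The alternatives reuse the CT arrays through which the genes were chosen. They show how the calls depend on the processing and are no independent support. CPT2 passed in 1 alternative, at 0.27 without time 0 female 10 (limma adjusted p = 0.0208). The decrease of CPT1A was -0.54 in females and -1.53 in males (SE 0.14 each), and that of SLC25A20 was -0.72 in females and -0.93 in males (SE 0.16 each). The animals measured at both times gave negative differences for both genes. In female pig 8 CPT1A was 7.93 at 9 months and 8.68 at time 0, and SLC25A20 was 6.59 at 9 months and 7.12 at time 0. In male pig 25 CPT1A was 8.12 at 9 months and 9.62 at time 0, and SLC25A20 was 6.60 at 9 months and 7.29 at time 0. CPT2 differed by 0.38 in pig 8 and 0.21 in pig 25, and CPT1B by -0.19 and 0.33.

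Lymphocyte markers moved with time as well. All 9 T cell markers had a negative CT minus time 0 difference (median -0.51), 5 of them called lower, and their summed intensity was 14984 to 16738 in CT at 9 months and 18581 to 23637 at time 0, with no overlap. Of the 4 NK and cytotoxic markers 2 were called lower (median -0.53), CD79B of B cells was lower by 0.70, and all 3 red cell markers were called lower (median -1.27). Monocyte markers had a median of 0.14, with 1 of 9 called higher, and 4 of 5 platelet markers were negative (median -0.44, 0 called). Their part in the decrease of CPT1A and SLC25A20 was not tested. The spike-in level ran from 8.39 to 10.4 in CT at 9 months and from 7.58 to 9.15 at time 0. Because each set was defined inside a time, set and time cannot be told apart.

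At time 0 females had less CPT1A than males, 8.58 ± 0.16 against 9.74 ± 0.16 (SD, n = 5 each). The highest female (8.77) lay below the lowest male (9.62), and the difference was -1.16 (SE 0.10, a 0.449-fold intensity). The other 3 genes did not separate the sexes. SLC25A20 was 7.35 ± 0.30 in females and 7.45 ± 0.21 in males, a difference of -0.10 (SE 0.12). CPT1B was 6.67 ± 0.28 in females and 6.41 ± 0.16 in males, a difference of 0.27 (SE 0.12), and CPT2 differed by 0.02 (SE 0.10). Over all probe sets 3.25% did not overlap between the sexes at time 0 and 1.07% passed the test. CPT1A was noticed in this comparison, so its separation is a description. Without females 6 and 10, which carried the higher spike-in levels, the differences were -1.22 for CPT1A and -0.31 for SLC25A20. T cell sums were 18581 to 22757 in females and 20079 to 23637 in males, and monocyte sums 13144 to 16654 in females and 11950 to 14612 in males, with 1 marker of 9 called in each list (IL7R lower, AIF1 higher). All 5 platelet markers had a negative female minus male difference (median -0.47, 0 called).

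At 9 months the sex difference of CPT1A was -0.19 over the 3 diets (SE 0.09, 95% interval -0.38 to 0.01, limma adjusted p = 0.260), which did not pass. By diet it was 0.04 in HF+RES, -0.43 in HF and -0.16 in CT (SE 0.16 each). SLC25A20 differed by -0.28 (SE 0.11, -0.52 to -0.04, limma adjusted p = 0.149), CPT1B by 0.12 (SE 0.11, limma adjusted p = 0.606) and CPT2 by 0.01 (SE 0.09, limma adjusted p = 0.953), where 6.01% of all probe sets passed and 1.27% did not overlap. The sexes overlapped for all 4 genes. By diet the SLC25A20 difference was -0.48 in HF+RES, -0.47 in HF and 0.11 in CT (SE 0.20 each). The sex difference at 9 months less that at time 0 was 0.97 for CPT1A (SE 0.14), -0.18 for SLC25A20 (SE 0.17), -0.15 for CPT1B (SE 0.17) and -0.0027 for CPT2 (SE 0.14). It holds the contrast in which CPT1A was noticed and is a description, beside 7.34% of all probe sets that passed. All 9 monocyte markers had a negative female minus male difference at 9 months (median -0.52, 4 called lower), and CD79B was higher in females by 0.97. Of the 9 T cell markers 8 were positive (median 0.21, 1 called higher). Red cell markers had a median of -1.66 with 2 of 3 called lower, and sums of 960 to 2154 in females and 1561 to 5815 in males. All 4 granulocyte markers (median -0.52, 2 called lower) and all 5 platelet markers (median -0.64, 0 called) were negative too. Their part in the SLC25A20 values was not tested.

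The 8 groups of diet and sex can be ordered by mean CPT1A level. Time 0 males led (9.74), followed by HF males (9.52), HF+RES females (9.20), HF+RES males (9.16), HF females (9.09), time 0 females (8.58), CT males (8.20) and CT females (8.04). The arrays of the first pair in this order do not overlap (lowest time 0 male 9.62, highest HF male 9.61), but that gap is far smaller than the SDs of 0.16 and 0.13. HF males (lowest 9.43) lie close above HF+RES females (highest 9.35). The HF+RES groups and the HF females overlap one another, as do CT males and CT females. A wider gap lies between the highest time 0 female (8.77) and the lowest HF female (8.98). That between the lowest time 0 female (8.34) and the highest CT male (8.28) is smaller than the SDs. For SLC25A20 the order was HF males (7.47), time 0 males (7.45), HF+RES males (7.44), time 0 females (7.35), HF females (6.89 and 7.11), HF+RES females (6.96), CT females (6.63) and CT males (6.52). The first 4 of these overlap, as do HF and HF+RES females, and both CT groups lie below all the rest.

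**Figure D4:**
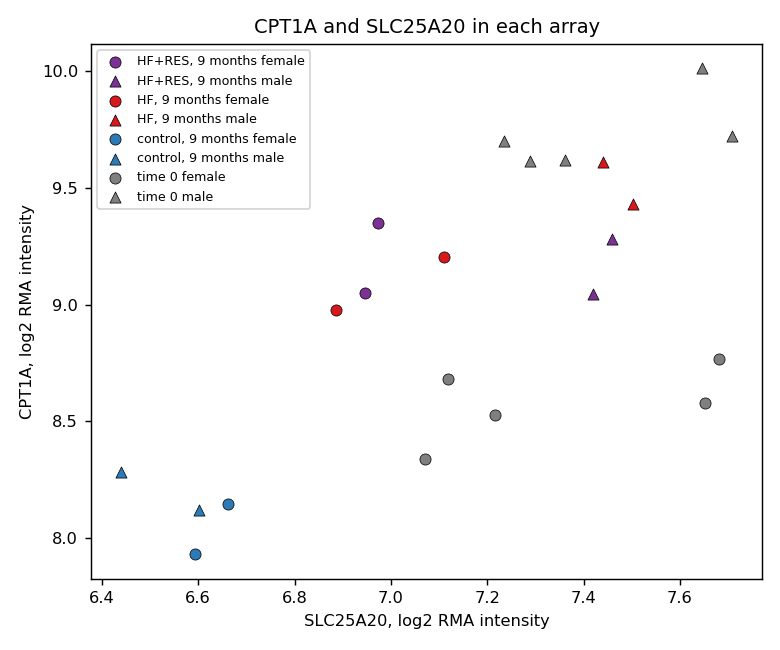
CPT1A (y axis) against SLC25A20 (x axis), both as log2 RMA intensity, 1 point per array, with colour for condition, circles for females and triangles for males. The CT arrays of 9 months lie at the lower left, and the time 0 females lie below the time 0 males for CPT1A at like levels of SLC25A20.

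The levels of CPT1A and SLC25A20 went together at 9 months. Over the 12 arrays of that time Pearson's r was 0.863, and SLC25A20 ranked 1 among the 5904 genes compared with CPT1A, while CPT1A ranked 3 for SLC25A20. The arrays share diets and sexes, so r describes these groups, and the genes were chosen partly for this pattern. After SLC25A20 the genes most like CPT1A at 9 months were RPA2 (r = 0.842), a single-stranded DNA binding protein, ATP5G3 (0.817), a subunit of ATP synthase, NDUFA13 (0.796), a subunit of respiratory complex I, CLP1 (0.796), an RNA kinase, and DNAJB11 (0.783), a chaperone of the endoplasmic reticulum. Those most like SLC25A20 were OSTC (0.875), of the oligosaccharyltransferase complex, ATP5L (0.871), a subunit of ATP synthase, SESN1 (0.846), a stress-induced sestrin, ISCA1 (0.842), an iron-sulfur assembly factor, and NOP10 (0.836), a nucleolar protein. CPT2 and CPT1B were unlike either, with r between -0.21 and 0.21.

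Over all 22 arrays, where time and sex add to diet, r between CPT1A and SLC25A20 was 0.668. The genes most like CPT1A were then IER3IP1 (0.716), PSMD10 (0.708), a proteasome chaperone, TNFRSF17 (0.707), the plasma cell receptor BCMA, ISCA1 (0.668) and BET1 (0.661), a vesicle transport protein. Those most like SLC25A20 were CALM2 (0.836), which encodes calmodulin, BBIP1 (0.799), PLAC8 (0.785), PSMB6 (0.784), a proteasome subunit, and SNTB1 (0.779). CPT1A ranked 97 in that order. The time 0 females, with CPT1A at 8.34 to 8.77 and SLC25A20 at 7.07 to 7.68, are low for CPT1A and not for SLC25A20.

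The genes around the shuttle mostly overlapped between the diets. Of 49 tested genes of 6 lists, FABP4 counted, the arrays of HF and CT did not overlap for 2 (4.1%, against 5.05% of all probe sets). FABP3, a fatty acid carrier of heart and muscle, was at 8.48 to 8.62 in HF and at 7.88 to 8.23 in CT, and ACAA1, a peroxisomal thiolase, at 9.09 to 9.28 in HF and at 9.37 to 9.63 in CT. HF+RES and CT did not overlap for PLIN2, the lipid droplet coat protein (1 gene, 2.0%, against 1.53% of all probe sets). HF+RES and HF did not for ACAA1 (1 gene, 2.0%, against 3.81%). These shares are near or below those of all probe sets, and nothing particular to the lists is read from them. In HF minus CT, HF+RES minus HF and HF+RES minus CT, 0 of 48 passed limma's test, FABP4 being left out for the reason given with its values. At an unadjusted p under 0.05 there were 0 positive and 4 negative genes for HF minus CT, 1 positive and 0 negative for HF+RES minus HF and 0 for HF+RES minus CT. For HF minus CT the 16 beta-oxidation enzymes, which cut the acyl-CoA that the shuttle delivers, had 6 positive and 10 negative differences and a median of -0.01, against 48.8% positive over all probe sets. HADH, of the third step of the cycle, was at -0.29 (limma adjusted p = 0.569) and ECHS1, of the second, at -0.16. The 5 other carnitine genes had a median of -0.10, with the neuronal isoform CPT1C at -0.67 (limma adjusted p = 0.337). The 9 tested of 11 measured genes of malonyl-CoA and AMPK control had a median of -0.05, and the 4 tested of 5 acyl-CoA synthetases, which activate fatty acids, one of -0.11. The 5 tested of 8 PPAR and PGC-1 regulators had a median of -0.07. PPARA, PPARG and PPARGC1A were measured but below the filter.

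Of the PPAR targets outside the shuttle 10 of 12 measured passed the filter, FABP4 among them. For HF minus CT 5 were positive, FABP4 included, and 5 negative, and the median of -0.02 counts FABP4 as well. FABP4, a fatty acid carrier of fat cells and macrophages, had an HF minus CT difference of 2.08. It was at 7.92 and 7.35 in the HF females and between 2.95 and 3.72 in the other 20 arrays. It passed the filter only through these 2 arrays, so its values are a description and no test of it is read. CPT1A was 8.98 and 9.20 in the same 2 arrays, which is not above the HF males. ACAA1 was at -0.30, UCP2 at -0.56 and FABP3 at 0.42, none past the threshold.

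**Figure D5:**
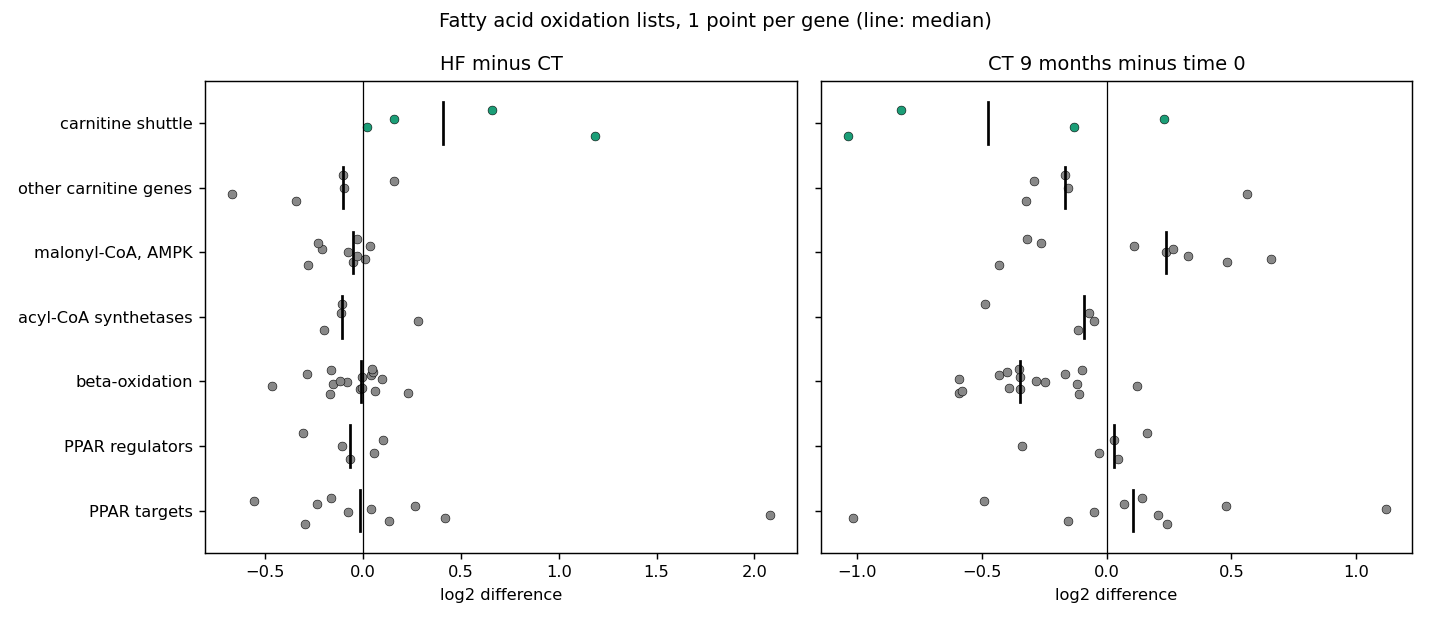
Differences (x axes, log2 units) of the 4 shuttle genes (green) and of the tested genes of 6 lists (grey, 1 point per gene, line at the median) for HF minus CT (left) and for CT at 9 months minus time 0 (right). On the left the medians of the 6 lists lie between -0.11 and -0.01, with FABP4 counted among the PPAR targets. On the right the beta-oxidation genes have a median of -0.35.

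In CT at 9 months against time 0, 9 of the 16 tested beta-oxidation genes were lower, 0 were higher and 7 did not pass. A total of 15 had a negative difference, with a median of -0.35 against -0.0064 over all probe sets, of which 49.2% were positive. The 35% of all probe sets that passed hold both directions, 3300 lower and 2726 higher of 17240. ACADM, the medium-chain acyl-CoA dehydrogenase, averaged 10.3 ± 0.09 in CT at 9 months and 10.9 ± 0.13 at time 0 (-0.58, limma adjusted p = 5.69e-05). The flavoproteins that pass its electrons on fell too, ETFA by 0.59, ETFB by 0.35 and ETFDH by 0.43 on the log2 scale. The very long-chain dehydrogenase ACADVL (-0.39), ACADL (-0.59), ACADS (-0.35), the trifunctional protein subunit HADHA (-0.40) and HSD17B10 (-0.35) were the others. ACADL lost its call without CT male 16, and ACADS in 2 of 23 alternatives, 1 of them without CT female 8. ACADVL and ETFDH each had 1 other tested probe set, of the same sign and not called. Of the synthetases ACSL5 fell by 0.49 and the other 3 tested did not pass. In the same comparison 5 of 9 T cell markers, 2 of 4 NK and cytotoxic markers, CD79B and 3 of 3 red cell markers were called lower, and their part in these values was not tested.

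Subunits of AMPK, the kinase that relieves the malonyl-CoA block of CPT1, were higher in CT at 9 months than at time 0. PRKAB1 averaged 9.32 ± 0.07 in CT at 9 months and 8.66 ± 0.15 at time 0 (0.66, limma adjusted p = 5.51e-06), and PRKAA1 (0.48), PRKAB2 (0.33) and PRKAG1 (0.24) also rose. These and STK11 make 5 called of 9 tested, beside 35% of all probe sets. PRKAG1 lost its call in 3 of 23 alternatives, with the highest limma adjusted p (0.138) without CT female 8. STK11, the kinase that activates AMPK, fell by 0.32, although its 2 other tested probe sets had the opposite sign. CPT1C rose by 0.56, the only one of the 5 other carnitine genes to pass, and lost its call without CT female 18. Its other tested probe set had the same sign and was not called. Among PPAR targets KLF10 (1.12), PLIN2 (0.48) and ACAA1 (0.24) rose and FABP3 fell by 1.02. PPARD fell by 0.34, with the opposite sign in its 2 other tested probe sets. PPARD and PLIN2 passed in 13 of 23 alternatives each, ACAA1 in 20 and STK11 in 21.

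Between the sexes at time 0, where CPT1A was -1.16, 0 of the 48 genes passed limma's test, beside 1.07% of all probe sets, with 7 positive and 3 negative at an unadjusted p under 0.05. The nearest were ALDH9A1, of carnitine synthesis (0.44, limma adjusted p = 0.0501), HADH (0.34) and PLIN2 (-0.47, limma adjusted p = 0.0677 for both). Of the beta-oxidation genes 13 of 16 had a positive female minus male difference (median 0.09, 0 called), against 51.9% positive over all probe sets. At 9 months 10 of the 48 passed (20.8%, beside 6.01% of all probe sets), 4 higher and 6 lower in females. ALDH9A1 (-0.47), CPT1C (-0.51), ACSL4 (-0.43), HADHB (-0.25), DECR1 (-0.60) and TXNIP (-0.61) were lower in females. FASN, the fatty acid synthase (0.70), the citrate carrier SLC25A1 (0.40), PPARD (0.32) and PLIN2 (0.39) were higher in females. Over 20 alternatives PPARD passed in 7, SLC25A1 and PLIN2 in 8 each, DECR1 in 11, CPT1C in 12, TXNIP in 16 and HADHB in 18, while ALDH9A1, ACSL4 and FASN passed in all 20. Of the 3 other tested probe sets of FASN, 2 had the same sign and 0 were called. The other tested probe sets of CPT1C (1) and PPARD (2) had the same sign with 0 called, and of the 2 of HADHB, both of the same sign, 1 was called.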

How the data were processed

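The authors deposited linear intensities, 1 per probe set and array, made with GCOS, RMA and Affymetrix Expression Console 1.1 per the submitters' processing notes. Here the log2 of each intensity was taken after a floor of 1. Symbols came from the array's annotation. The 124 control probe sets were set aside, and 17240 of 23999 probe sets passed the filter.

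Differences were fitted with limma 3.58.1 (R 4.3.3, statmod 1.5.0) over 22 arrays, two-sided, with Benjamini-Hochberg adjustment over all tested probe sets at 0.05. Diet and time comparisons used condition and an additive sex term, and sex comparisons 8 group means. Intervals are 95% and come from the same fit, and their width is limited by the few arrays. Replicates are separate pigs per the labels. Pigs 8 and 25 were measured at both times per their labels. The correlation of their group-centred profiles was -0.056 and 0.199.

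The members, lists and tests were chosen with earlier results of these data known. Lists hold the other carnitine genes, malonyl-CoA and AMPK control, acyl-CoA synthetases, beta-oxidation, PPAR regulators, PPAR targets and cell type markers, 1 probe set per gene, the brightest. Named were the members, at most the 4 smallest p of a list and comparison, and the 5 genes most like CPT1A and SLC25A20. The other list genes that passed, those below the filter, those whose diets did not overlap and FABP4, left out of counts of calls, were singled out after their values were seen. Alternatives changed the filter, scaling, added constant (16), weights, trend, sex term, arrays, pig block and spike-in sets. The fits were tested on simulated data. No sequences are shown.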

Additional observations from a re-analysis of the deposited data

Results flagged for a closer look

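One array was set apart from its group. Male 11 at time 0 had the highest CPT1A level of the series, 10.0, where the other 4 time 0 males lay between 9.62 and 9.72. Its gap to the nearest male was 0.730 of the range of the 5 males, above the critical value of Dixon's test. It was 1 of 20 sets of arrays tested in this way, and chance sets apart about 1 in 20. Without this male the CPT1A difference between females and males at time 0 was -1.09, against -1.16 with it.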

How the results depend on the processing

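Over 727 values of the 4 genes under the alternatives, 715 kept their side of the threshold or, where untested, moved by less than 1 SD between replicates, 11 untested values moved by more, and 1 was called anew (CPT2 with time). No called value changed sign. The uncalled CPT1A value in HF+RES minus HF lay between -0.30 and 0.04 with 1 array left out. CPT1A in HF+RES minus CT was 1.25 with array weights. Within the higher spike-in set, fits whose sex term rests on HF alone gave 1.45 for HF+RES minus CT and 1.49 for HF minus CT, against plain differences of 0.93 and 1.15. SLC25A20 in HF minus CT was 0.84 in the higher and 0.85 in the lower set, and in HF+RES minus CT 0.79 in the higher set, where the plain difference was 0.35. Counts of called probe sets moved more. In HF minus CT they were 68 with array weights, 18 with 8 group means, 1 with the 12 arrays of 9 months and 25 within the lower spike-in set, against 0. HF+RES minus HF gave 1 with 8 group means (FABP4) and 29 within the lower set, and HF+RES minus CT gave 1 with 8 group means and 1 with the 12 arrays. Both diet by sex counts were 0 under the stricter filter (log2 above 6 in 4 arrays), which drops CPT2 and also FABP4. FABP4 was the 1 call of HF minus CT by sex and 1 of the 2 of HF+RES minus HF by sex. Females against males at time 0 gave 83 with spike-in sets as a random block and 28 without the higher set, 27 of them shared with the 184, a choice made after seeing the data. Beyond the loss of FABP4 under the stricter filter, the cause of these moves was not tested.

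Leaving out 1 array gave 0 to 18 calls for HF minus CT (18 without CT female 8), 38 (without male 11) to 395 (without female 20) for the sexes at time 0, 319 (without HF male 23) to 1441 (without CT male 16) at 9 months, 692 to 1714 for the change of the sex difference, 1 to 154 (without CT male 25) and 1 to 54 (without HF male 26) for the diet by sex comparisons. CPT1A then lay between 0.89 and 1.22 in HF+RES minus CT and between 1.08 and 1.31 in HF minus CT. With pig number as a replicate block, pairing pigs 8 and 25, HF minus CT was 1.19 for CPT1A and 0.68 for SLC25A20, CT minus time 0 was -1.04 and -0.84 with 5828 calls, and the block changed no call of the 4 genes.

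With 2 arrays per sex and diet, differences of the size of the CPT2 and CPT1B standard errors are not detectable, and the CPT2 probe set lay above log2 6 in 0 arrays.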
